A study of Zea mays with 6 samples.

Results

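ESR1 and ESR3 are embryo-surrounding region genes and CR4 (CRINKLY4) is a receptor kinase gene of the aleurone. They are the 3 genes of the deposited table whose name is CR4 or ESR followed by a digit, out of 36781 genes. The rule uses the name alone, but it was set with earlier results of these data known. Messenger RNA was sequenced from maize endosperm, the starch- and protein-storing tissue of the kernel, at 12 days after pollination, in 3 wild-type (WT) libraries and 3 libraries of the mutant smk8-ref. Both genotypes were given Trizol extraction and Illumina libraries; the series calls the libraries of a genotype biological repeats, and the labels name no background line, treatment, plant or ear, so p-values cover only the spread among the 6 libraries. The comparison asks how the level of each gene differed between mutant and WT endosperm.

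The cereal endosperm is made of several cell types. The embryo-surrounding region is a small domain of endosperm around the young embryo, and the ESR genes expressed there encode small secreted proteins of the CLE family, whose processed peptides are ligands of receptor kinases. The aleurone is the outer cell layer of the endosperm, and CR4 encodes a receptor kinase of the plasma membrane that is needed in maize for aleurone identity and for a normal leaf epidermis; its Arabidopsis relative ACR4 takes part in CLE peptide signalling in the root. Bulk endosperm mixes all of these cells, so that fewer cells of a type and less RNA per cell cannot be told apart.

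ESR3 fell in smk8-ref endosperm, with a WT mean 3.84 times that of the mutant, while neither ESR1 nor CR4 passed the test. The ESR3 call held in 5 of 16 alternative settings and was lost whenever 1 library was left out. Levels are in FPKM, the number of fragments relative to transcript length and to the size of the library, and the test is limma on log2(FPKM + 1), with Benjamini-Hochberg adjustment over all 15858 genes tested and a threshold of 0.05. By this test 7.60% of all tested genes changed, 4.21% lower and 3.39% higher in smk8-ref. All 3 genes passed the filter on low values, 1 FPKM or more in at least 3 libraries, ESR3 with 3 WT libraries and 1 smk8-ref library. The median log2 change over all tested genes was 0.05.

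ESR1 and ESR3 lie next to each other on chromosome 1, both on the plus strand and each with 1 transcript in the table. ESR1 (Zm00001d027820) spans 14479050 to 14479445 and ESR3 (Zm00001d027821) spans 14492187 to 14492564, in the coordinates of the table, for which the sources used here give no genome build. The transcripts cover 396 and 378 bases of genome. Genes of this family are close copies, and the division of sequencing fragments among them is uncertain.

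In WT replicates 1, 2 and 3 the level of ESR3 was 3.22, 3.23 and 4.68 FPKM. In smk8-ref replicates 1, 2 and 3 it was 0.308, 1.75 and 0.837 FPKM. Every smk8-ref library lay below every WT library, as it did for 15.9% of all tested genes. The means were 3.71 ± 0.840 FPKM (SD, n = 3) in WT and 0.966 ± 0.730 in smk8-ref. The log2 change was -1.31 ± 0.29 (SE), with a 95% interval from -1.99 to -0.63 and a limma adjusted p of 0.043. ESR3 thus entered the test through the genotype in which it was higher. With a filter on the mean of all 6 libraries instead, the limma adjusted p was 0.045, and with no filter it was 0.080. The call was also lost in limma with the replicate number as a block (adjusted p = 0.075), a pseudocount of 0.1 (adjusted p = 0.069), rescaling to a common sum (adjusted p = 0.060) and each transcript tested on its own (adjusted p = 0.087). The call also rested on the full set of libraries: with any 1 of the 6 left out, the log2 change lay between -1.59 and -1.05 and the limma adjusted p between 0.071 and 0.12.

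ESR1 stood at 1.90, 1.50 and 1.72 FPKM in the WT libraries and at 0.601, 6.76 and 1.06 FPKM in the smk8-ref libraries. smk8-ref replicates 1 and 3 were below all WT libraries, and smk8-ref replicate 2 was above them all, at 3.55 times the highest other library. The means were 1.71 ± 0.202 FPKM in WT and 2.81 ± 3.43 FPKM in smk8-ref (SD, n = 3). The log2 change was 0.13 ± 0.55 (SE), with a 95% interval from -1.18 to 1.43 and a limma adjusted p of 0.90, so that the interval held both a 2-fold rise and a 2-fold fall. Without smk8-ref replicate 2 the direction turned, to a log2 change of -0.57 with a limma adjusted p of 0.18. The direction also turned with a pseudocount of 0.1 and with quantile normalization, at log2 changes of -0.020 and -0.053.

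smk8-ref replicate 2 was the highest of its genotype for ESR3 as well, at 3.06 times the mean of smk8-ref replicates 1 and 3, against 8.13 times for ESR1. It was 1.09 times that mean for CR4. The coefficient of variation within smk8-ref was 122% for ESR1, 75.6% for ESR3 and 5.78% for CR4, and within WT it was 11.8% for ESR1, 22.7% for ESR3 and 11.8% for CR4. By this coefficient both ESR genes varied more among the mutant libraries than among the WT libraries, and CR4 did not. The value for ESR1 includes smk8-ref replicate 2, at 6.76 FPKM against 0.601 and 1.06 FPKM in smk8-ref replicates 1 and 3. The share of all tested genes that varied more in smk8-ref was not taken. The SD of ESR3 was smaller in smk8-ref, at 0.730 FPKM against 0.840 FPKM in WT. Its larger coefficient in smk8-ref thus comes with a mean of 0.966 FPKM.

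**Figure D1:**
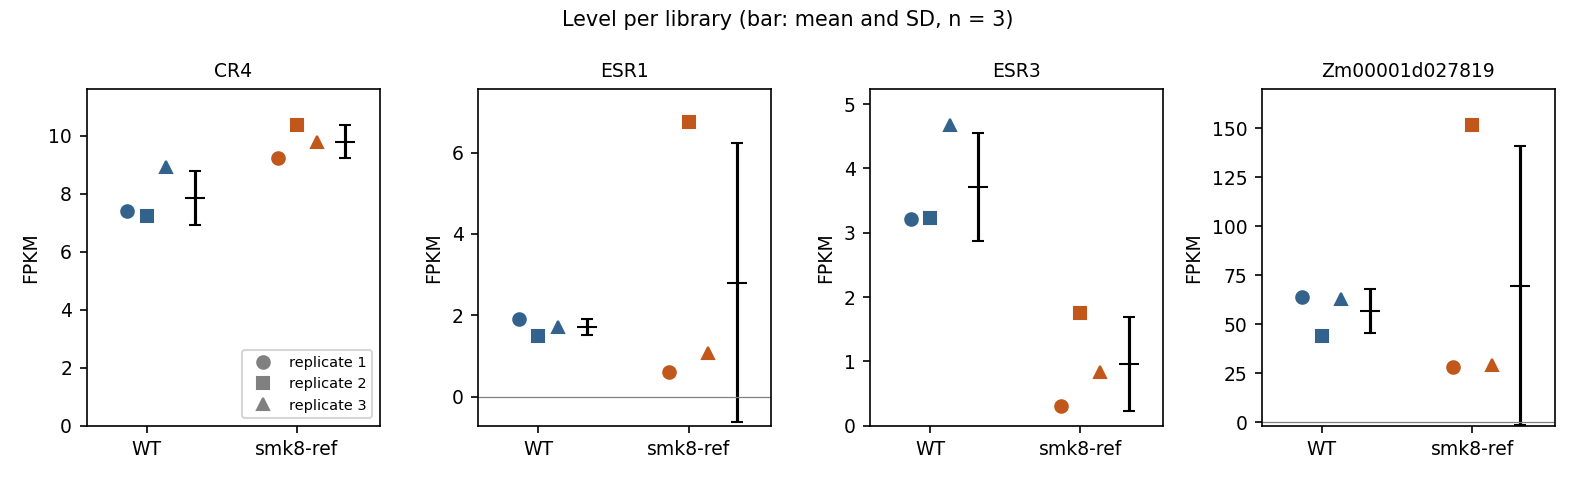
FPKM (linear axis) of CR4, ESR1, ESR3 and the unnamed gene beside ESR1 in each library; the marker shape gives the replicate and the bar to the right of each group the mean and SD (n = 3). The groups are apart for CR4 and ESR3, and smk8-ref replicate 2 stands above all others for ESR1, at 6.76 FPKM, and for Zm00001d027819, at 151.8 FPKM.

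An unnamed gene beside ESR1 had a far higher level. Zm00001d027819 spans 14448014 to 14448412 on chromosome 1, covers 399 bases on the same strand as the ESR genes and ends 30638 bases before ESR1; the gap between ESR1 and ESR3 is 12742 bases. It was chosen for its position after its values had been seen, and the table gives it an identifier alone. The RefSeq gene table for the assembly Zm-B73-REFERENCE-NAM-5.0 places 3 genes with ESR names in a row on chromosome 1, the first with both ESR1 and ESR2 among its synonyms, the second with ESR1 and the third with ESR3. Since 0 identifiers of the deposited table occur in that RefSeq table, no name is given here to the unnamed gene.

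Zm00001d027819 stood at 63.7, 44.0 and 62.9 FPKM in WT and at 28.1, 151.8 and 28.9 FPKM in smk8-ref. As for ESR1, smk8-ref replicates 1 and 3 were below every WT library and smk8-ref replicate 2 was above them all. The means were 56.9 ± 11.2 FPKM in WT and 69.6 ± 71.2 FPKM in smk8-ref (SD, n = 3), higher in the mutant, while the mean on the log2 scale was lower. The log2 change was -0.16 ± 0.62 (SE, limma adjusted p = 0.89), and without smk8-ref replicate 2 it was -0.95 (limma adjusted p = 0.091). The direction turned when smk8-ref replicate 1 was left out (0.24), when smk8-ref replicate 3 was (0.22) and with quantile normalization (0.11). As a description, its log2(FPKM + 1) had a Pearson correlation of 0.96 with that of ESR1 over the 6 libraries, the 8th highest of 15857 tested genes, and of 0.47 with that of ESR3. Without smk8-ref replicate 2, the correlation with ESR1 was 0.92 over 5 libraries. The values of a library share its depth and preparation.

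The ratio of the ESR genes within a library is free of any scaling of the libraries. It does depend on how fragments are divided between these close copies, which was not tested. ESR3 was at 1.69, 2.15 and 2.72 times the level of ESR1 in WT replicates 1 to 3, and at 0.514, 0.259 and 0.789 times in smk8-ref replicates 1 to 3. ESR3 was thus above ESR1 in 3 of 3 WT libraries and below it in 3 of 3 smk8-ref libraries, replicate 2 included. The share of other gene pairs whose ratio separates the genotypes was not taken. In smk8-ref replicates 1 and 3 the ratio is of low values, ESR3 at 0.308 and 0.837 FPKM and ESR1 at 0.601 and 1.06 FPKM. On the log2 scale the mean ratio was 1.10 ± 0.34 (SD, n = 3) in WT and -1.08 ± 0.81 in smk8-ref, a 4.55-fold difference. A two-sided exact permutation test gave p = 0.10, the smallest that 3 against 3 libraries can give, and 0.15 after Benjamini-Hochberg adjustment over the 3 ratios examined, all of which were chosen after the values were seen.

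The ratio of ESR3 to Zm00001d027819 was lower in every smk8-ref library as well, by 4.22-fold on average (exact permutation p = 0.10, adjusted p = 0.15). This ratio shares ESR3 with the one above, so the ratios are not independent. ESR3 made up 4.67%, 6.63% and 6.75% of the summed FPKM of these 3 adjoining genes in WT and 1.06%, 1.09% and 2.72% in smk8-ref. The ratio of Zm00001d027819 to ESR1 overlapped between the genotypes, at 29.3 to 36.6 in WT and 22.5 to 46.8 in smk8-ref, with an average difference of 1.08-fold (exact permutation p = 0.80, adjusted p = 0.80).

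**Figure D2:**
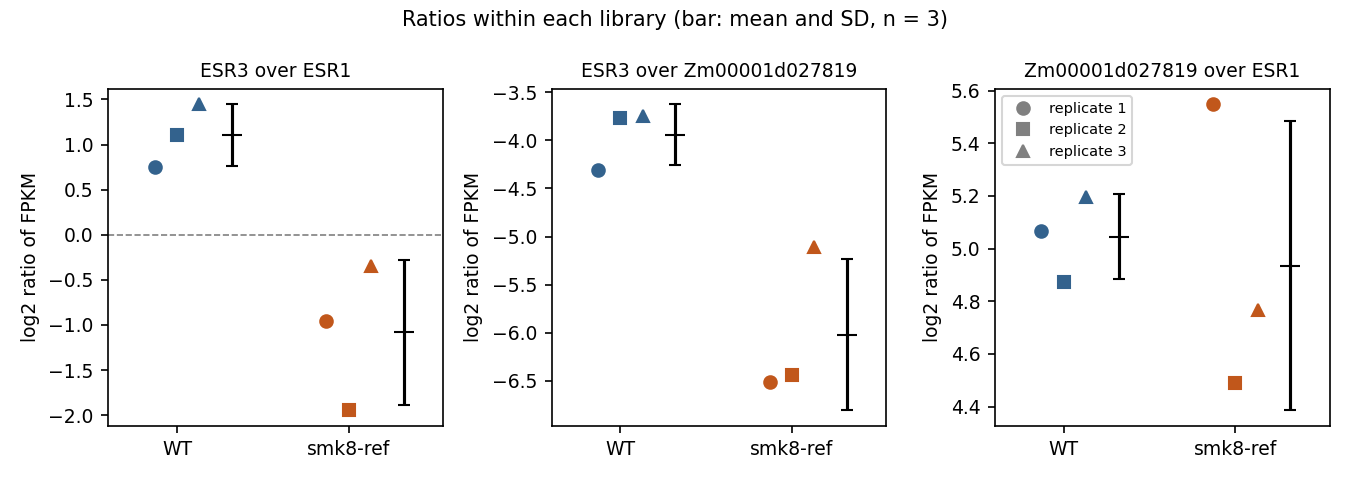
Log2 ratio of FPKM within each library for the 3 pairs among ESR1, ESR3 and Zm00001d027819, by genotype, with bars for the mean and SD (n = 3); the dashed line marks equal levels of ESR3 and ESR1. Both ratios with ESR3 are lower in all 3 smk8-ref libraries, and the ratio of Zm00001d027819 to ESR1 overlaps.

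With ESR1 and ESR3 summed to 1 value, the level was 5.12, 4.73 and 6.39 FPKM in WT and 0.909, 8.51 and 1.90 FPKM in smk8-ref. The groups overlapped through smk8-ref replicate 2, and the sum did not pass (log2 change -0.77 ± 0.55, SE, limma adjusted p = 0.40). Without that library the log2 change of the sum was -1.44 (limma adjusted p = 0.078). With Zm00001d027819 added, the sum was 68.9, 48.7 and 69.3 FPKM in WT and 29.0, 160.3 and 30.8 FPKM in smk8-ref. Its mean was 62.3 FPKM in WT and 73.4 FPKM in smk8-ref, again opposite in direction to the log2 change (-0.22, limma adjusted p = 0.85). Without smk8-ref replicate 2 this sum had a log2 change of -1.02 (limma adjusted p = 0.084), and its direction turned when smk8-ref replicate 1 was left out (0.20), when smk8-ref replicate 3 was (0.16) and with quantile normalization (0.055). The part that the division of fragments among close copies has in the value of ESR3 was not tested.

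CR4 (Zm00001d023425) lies on chromosome 10 at 5235583 to 5238288 on the plus strand, with 1 transcript that covers 2706 bases. Whether ESR peptides act through CR4 was not tested. It stood at 7.42, 7.24 and 8.93 FPKM in WT and at 9.24, 10.4 and 9.78 FPKM in smk8-ref. All smk8-ref libraries lay above all WT libraries, as for 18.7% of tested genes, with WT replicate 3 close to smk8-ref replicate 1. The means were 7.86 ± 0.927 and 9.80 ± 0.566 FPKM (SD, n = 3), a ratio of 1.25. The log2 change of 0.29 ± 0.13 (SE) did not pass (limma adjusted p = 0.21), with a 95% interval from -0.03 to 0.61 that leaves out a change of 2-fold in either direction. Under the 16 alternatives run, the change ranged from 0.15 to 0.37 and none passed; median-of-ratios scaling moved the median of all genes to -0.07 and gave 0.15 for CR4.

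In WT the order of levels per length was CR4, ESR3 and ESR1, with no overlap between the genes. In smk8-ref CR4 was again highest, and ESR1 came before ESR3 within every library, although their ranges over the libraries overlapped. CR4 lay above 63.0% to 70.2% of the tested genes in each library. ESR3 lay above 39.5% to 48.2% in WT and 0.618% to 16.1% in smk8-ref, and ESR1 above 17.8% to 26.3% in WT and 1.63% to 57.9% in smk8-ref.

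The genes with the most similar pattern were found by Pearson correlation of log2(FPKM + 1) over the 6 libraries, among 188 other tested genes that have a name. With 6 libraries in 2 groups, a gene that differs by genotype correlates with others that do, and the values carry no p. For ESR3 they were the ribosomal protein gene RPS4 (0.97), histone H4 genes named H4C7 at Zm00001d026015 (0.96) and Zm00001d021477 (0.93), the chaperonin gene CPN60II (0.95) and the ribosomal protein gene RPL17 (0.95). For CR4 they were the aquaporin gene NIP1-1 (0.94), the phytochrome A gene PHYA1 (0.93), the receptor-like protein gene FEA2 (0.90), the gravitropism gene LA1 (0.90) and HMT-3, a homocysteine methyltransferase gene (0.89). For ESR1 they were CNR5, of the cell number regulator family (0.84), HSP18, a small heat shock protein gene (0.80), SMH5, of the single myb histone family (0.73), TIF (0.72) and CFM3, of the plastid RNA splicing factors (0.71).

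FEA2 and TD1 encode the maize relatives of CLAVATA2 and CLAVATA1, which in Arabidopsis take part in CLE peptide perception in the shoot meristem; both were added once the names were known. FEA2 stood at 2.15, 2.40 and 2.67 FPKM in WT and at 3.44, 3.49 and 3.09 FPKM in smk8-ref. All its smk8-ref values were above its WT values, as for 18.7% of tested genes, and its log2 change of 0.35 ± 0.14 (SE) did not pass (limma adjusted p = 0.16, unadjusted p = 0.044). TD1 stood at 0.0807, 0.346 and 0.528 FPKM in WT and at 0.790, 0.760 and 0.616 FPKM in smk8-ref, and was too low to be tested.

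Markers of the kernel parts were looked for by name. Of 8 names and name patterns listed for the embryo-surrounding region and CLE family, ESR1 and ESR3 matched. Limma called ESR3 lower, as it did 4.21% of all tested genes, and that call held in 5 of 16 alternative settings. Of 19 names for the aleurone, CR4 and C2 matched. C2, the chalcone synthase gene of anthocyanin synthesis, stood between 0.0865 and 0.383 FPKM in all libraries and was not tested. None of 17 names for the basal transfer layer and neither of 2 for maternal tissue matched; MEG3, a relative of the transfer-cell gene MEG1, was added later and stood between 0.0808 and 0.343 FPKM. PPDK2, a pyruvate phosphate dikinase and the 1 starchy endosperm gene that matched among 17 names, was abundant in every library, at 2259 to 2904 FPKM in WT and 1475 to 2023 FPKM in smk8-ref (limma adjusted p = 0.14).

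Embryo and oil-body genes were measured beside these genes. Whether they are specific to a part of the kernel was not tested. Of 20 names, KN-1, OBAP1A, OBAP2A and OBAP2B matched. The mean of each of these 4 was higher in the mutant, and limma called 0 of them. The share of all tested genes with a higher mean in the mutant was not taken. OBAP1A, OBAP2A and OBAP2B are genes of 1 family and were each highest among WT libraries in WT replicate 3. The 4 genes are therefore not separate observations. In limma 2 of the 4 had an unadjusted p under 0.05. The share of all tested genes under it was not taken, but is at least the 7.60% that passed after adjustment. The median log2 change of these 4 genes was 1.07, and that of all tested genes 0.05. KN-1 passed the filter through the smk8-ref libraries alone, which favours a rise. The list was also written with earlier results of these data known, so no conclusion is drawn from these medians, means or counts. The summed level of the 4 genes was 20.7 to 68.0 FPKM in WT and 59.1 to 89.1 FPKM in smk8-ref. KN-1, the KNOTTED1 homeobox gene of meristems, stood at 0.0327, 0.838 and 0.993 FPKM in WT and 1.24, 1.03 and 1.57 FPKM in smk8-ref. It was above 0 in every library and below 1 FPKM in every WT library. OBAP2B, an oil-body-associated protein gene, reached 23.6 FPKM in WT replicate 3, against 3.06 and 8.23 FPKM in the other WT libraries, and 16.2 to 24.7 FPKM in smk8-ref. WT replicate 3 was also the highest WT library for ESR3 and CR4. Without it the log2 change was -1.17 for ESR3 (limma adjusted p = 0.074) and 0.37 for CR4 (limma adjusted p = 0.12). Of 5 embryo and meristem genes added after the names were seen, WOX3A, SCR, LBD6, RS2 and HOX1A, 2 were tested and none passed in limma (0 at an unadjusted p under 0.05), and their summed level was 2.17 to 4.22 FPKM in WT and 3.93 to 4.50 FPKM in smk8-ref. The part of embryo RNA in the levels of ESR1, ESR3 and CR4 was not tested.

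**Figure D3:**
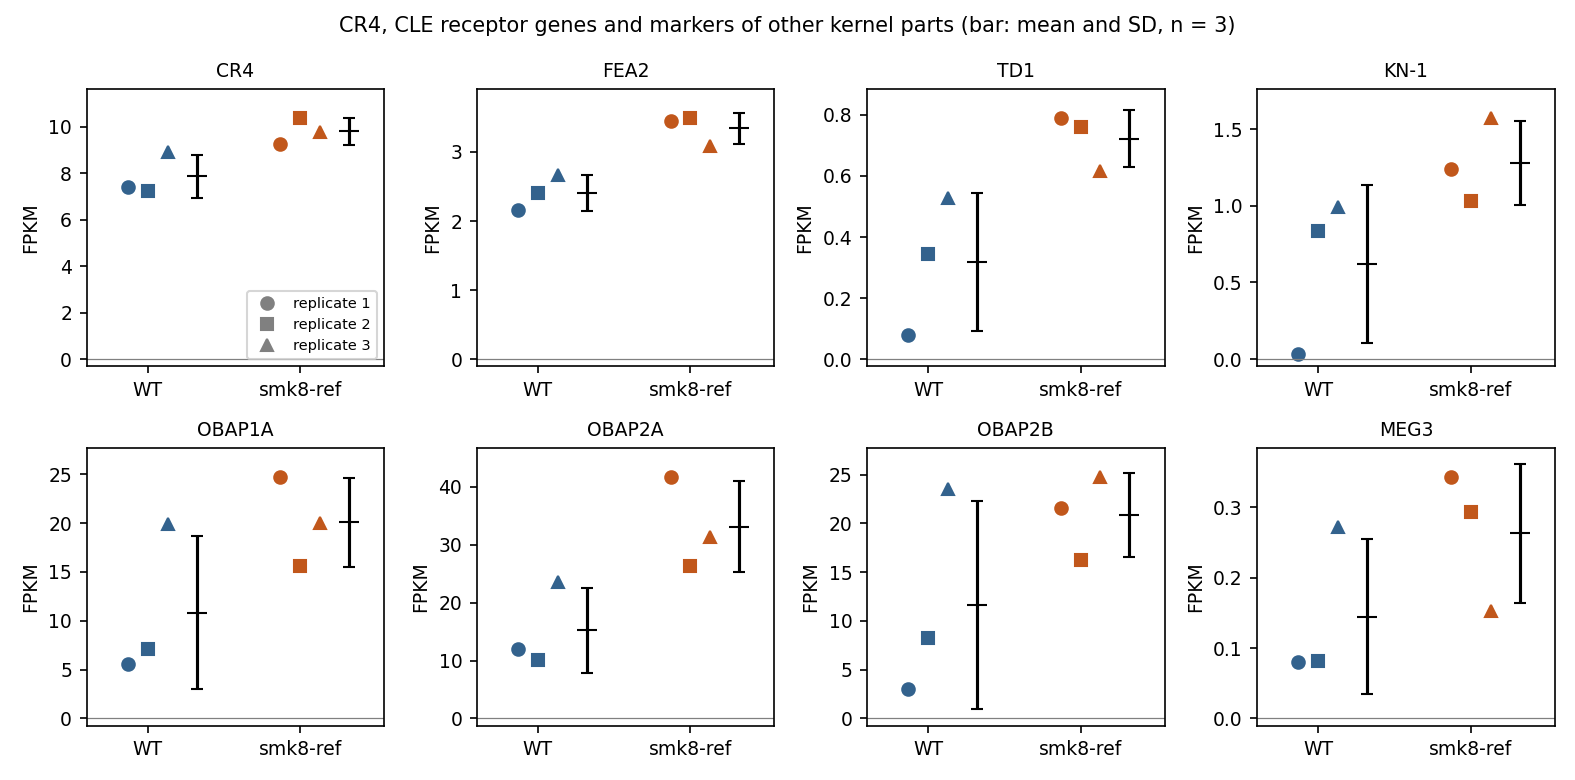
FPKM (linear axes) in each library for CR4, the CLE receptor genes FEA2 and TD1, the embryo and oil-body genes KN-1, OBAP1A, OBAP2A and OBAP2B, and MEG3, with bars for the mean and SD (n = 3). WT replicate 3 is the highest WT library in every panel and lies within the smk8-ref values for OBAP1A, at 19.9 FPKM, OBAP2B, at 23.6 FPKM, and MEG3, at 0.272 FPKM.

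None of the other tested genes within 100000 bases of CR4 passed. Zm00001d023423, Zm00001d023424 and Zm00001d023426, the tested genes around CR4, had log2 changes of -0.016, -0.13 and 0.03 (limma adjusted p = 0.97, 0.61 and 0.92). Beyond ESR3, Zm00001d027823 stood between 0 and 0.511 FPKM and was too low to be tested.

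The authors' deposited table gives ESR3 a log2 fold change of -1.73 with a p-value of 0.053 and a q-value of 0.76, and marks it as down. In the authors' deposited table ESR1 has a log2 fold change of -0.20 (p-value 0.89) and CR4 one of 0.19 (p-value 0.33), both marked as no change. The sign for ESR1 in the authors' deposited table is opposite to that of the limma estimate, and both are small beside the spread among the smk8-ref libraries.

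**Figure D4:**
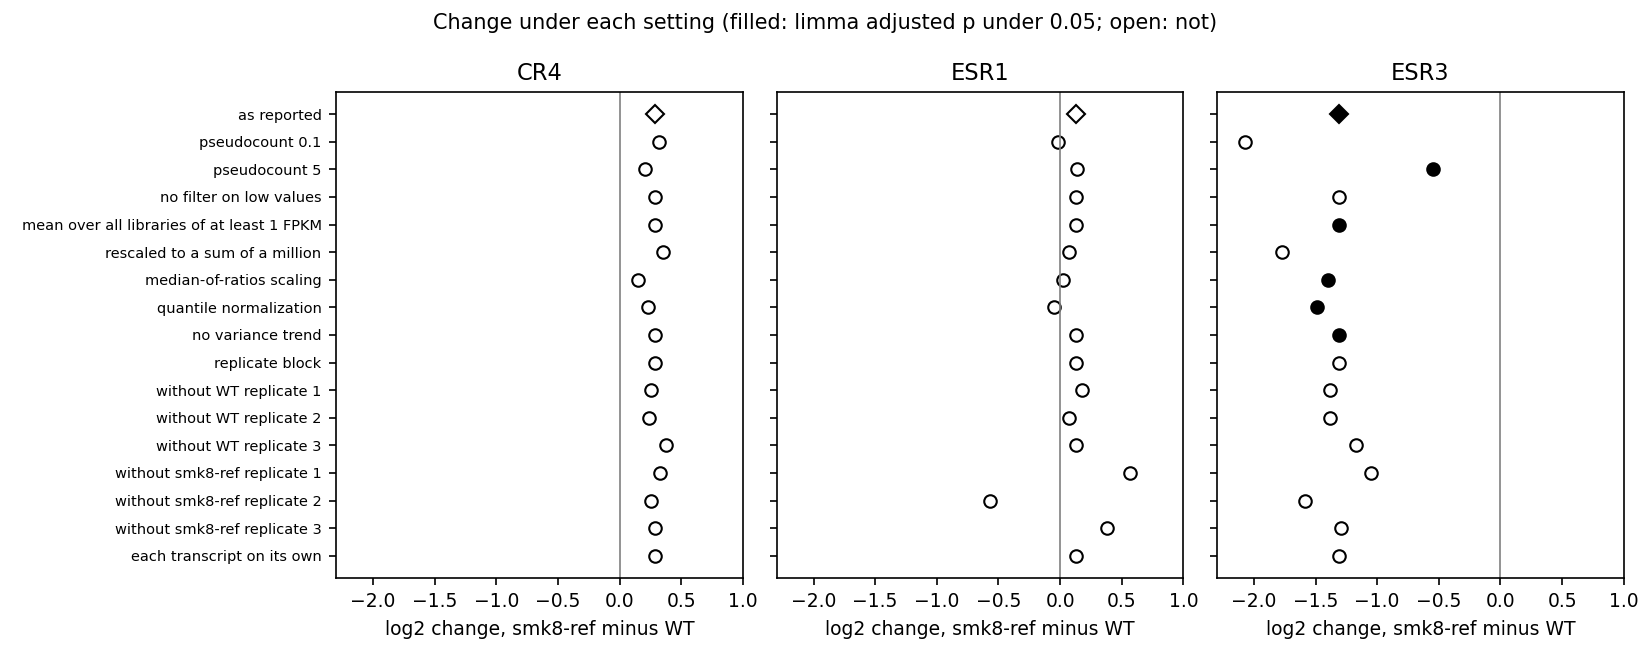
Log2 change of CR4, ESR1 and ESR3 (smk8-ref minus WT) as reported (diamond) and under each alternative setting (circles), filled where the limma adjusted p is under 0.05. ESR3 lies below 0 in every setting and is called in 5 of 16 alternatives, ESR1 falls on both sides of 0, and CR4 lies between 0.15 and 0.37.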

How the data were processed

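Endosperm RNA of 3 WT and 3 smk8-ref libraries was sequenced. The deposited table lists FPKM for 86771 transcripts in each library; HISAT and StringTie are named, per the submitters' processing notes, with no version, setting or build given in the sources used here. The authors' deposited table also holds their log2 fold change, p-value and q-value per transcript. FPKM was summed by locus (the identifier without its transcript number). FPKM sums were 287260 to 321002 per library; read depth is unknown, so no counting interval is given. Genes with 1 FPKM or more in at least 3 libraries were fitted with limma 3.58.1 in R 4.3.3 on log2(FPKM + 1), a pseudocount that understates changes of low genes, with a variance trend, two-sided. A value per gene was also recomputed with other pseudocounts, filters, scalings, a replicate block and libraries left out. Genes alike in pattern were the 5 named genes with the highest correlation for each gene. The members, lists and tests were chosen with earlier results of these data known. The ratios within libraries, the unnamed gene and its sum with the ESR genes were added after the values were seen. No source used here says what separated the libraries described as biological repeats.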

Additional observations from a re-analysis of the deposited data

How the results depend on the processing

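CR4 and the sum of ESR1 and ESR3 kept their direction and stayed uncalled under all alternatives run. ESR3 kept its direction in 16 alternatives and its call in 5. It lost the call with a pseudocount of 0.1 (log2 change -2.07, adjusted p = 0.069), no filter (-1.31, adjusted p = 0.080), rescaling to a common sum (-1.77, adjusted p = 0.060), the replicate block (-1.31, adjusted p = 0.075) and each transcript tested on its own (-1.31, adjusted p = 0.087), and with 1 library left out (-1.59 to -1.05, limma in each case). With non-overlapping groups, leaving out a library cannot turn the direction. ESR1 turned to -0.020 with a pseudocount of 0.1, to -0.053 with quantile normalization, and ranged from -0.57 to 0.57 with 1 library left out. Zm00001d027819 turned to 0.11 with quantile normalization and ranged from -0.95 to 0.24 with 1 library left out; its sum with ESR1 and ESR3 turned to 0.055 and ranged from -1.02 to 0.20. Over all genes 1205 were called, 388 with no filter, where more genes were tested, 779 with quantile normalization, 36 with the replicate block, and 28 to 1425 with 1 library left out. Same-numbered libraries of the genotypes deviated together with correlations of 0.0069, -0.0085 and 0.083, so the block rests on a shared number alone. The cause of the other losses was not tested. At levels near 1 FPKM and with unknown depth, the counting error of ESR1 and ESR3 could not be given.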
